A study of Caenorhabditis elegans with 8 samples.

Results

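The genes him-5, D1086.3 and D1086.5 lie next to each other on chromosome V of Caenorhabditis elegans and were followed here across 4 genotypes. They were found in the deposited count table by WormBase gene ID, through the symbol or sequence name, and are 3 of its 20392 genes. They were selected on their levels in these same libraries, which were known beforehand, so their values in every comparison are a description and carry no p-value. The study asked how loss of the heterochromatin anchor CEC-4 alters expression in larvae with a mutant lamin. Total RNA was sequenced from synchronized first-stage (L1) larvae, which hatched for 16 h without food and were fed for 2.5 h, with 2 libraries (a and b) per genotype and 8 in all.

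The double mutant (strain GW1468) carried an integrated transgene, ygIs, with GFP fused to lmn-1 Y59C under the baf-1 promoter and an unc-119(+) marker, in an unc-119(ed-3) background, together with the cec-4 allele ok3124. The lamin Y59C strain (GW653) carried the same transgene and unc-119 background with cec-4 intact. The cec-4 mutant (GW828) carried ok3124 alone, and the wild-type was N2 Bristol. All larvae were sorted for animals without a green balancer. Wherever the lamin mutation is present the transgene, marker and unc-119 background are present too, so their effects cannot be told apart, nor from any other difference between the strains that is not in the labels. The labels do not give the place where the transgene integrated. Whether libraries a and b of a genotype came from separate cultures is not stated either, so p-values measure only the spread between these libraries, which may be technical.

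HIM-5 is a chromatin-associated protein of the germ line that promotes the programmed DNA double-strand breaks of meiosis, above all on the X chromosome. Without it the X pair often lacks a crossover and fails to separate, and hermaphrodites then produce many XO males, the high incidence of males that gives the gene its name. Meiosis begins at later larval stages than the L1, in which the germ line consists of precursor cells. D1086.3 and D1086.5 are protein-coding genes known by sequence name, and no role is given to them here.

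In WBcel235 coordinates, D1086.5 (WBGene00008392, V:14088891-14090359) lies on the minus strand and him-5 (WBGene00001864, sequence name D1086.4, V:14090426-14092454) on the plus strand, so their starts face away from each other across 66 bases. D1086.3 (WBGene00008390, V:14092792-14093986) follows him-5 on the plus strand after 337 bases. The 3 genes together span 5096 bases and do not overlap. The merged exons add up to 800 bases in D1086.5, 1342 bases in him-5 and 849 bases in D1086.3. The reads were aligned to ce10, so these positions describe the genes in WBcel235 and were matched by gene ID alone.

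The deposited counts summed to between 30924676 and 57069281 per library. Levels are given as CPM, the count scaled to a common library size after TMM, a correction that balances composition between libraries. Transcripts of cec-4 were at 4.35 to 4.61 CPM in the double mutant, 12.31 to 12.32 CPM in lamin Y59C, 4.76 to 5.04 CPM in cec-4 mutants and 12.7 to 14.5 CPM in wild-type, which fits the labels. The marker gene unc-119 was at 41.5 to 43.3 CPM in the 4 libraries with the transgene and at 22.4 to 24.3 CPM in the other 4. Transcripts of lmn-1, whose reads here do not separate the transgene from the native gene, averaged 506 CPM in the double mutant, 515 CPM in lamin Y59C, 451 CPM in cec-4 mutants and 447 CPM in wild-type, and those of baf-1 were at 61.1 to 69.5 CPM in all libraries. Genes of larval timing (lin-14, lin-28, hbl-1, lin-46 and lin-29) summed to between 340 and 363 CPM in all libraries. In wild-type lin-14 and lin-28 averaged 181 and 130 CPM, but lin-46 and lin-29 only 4.07 and 3.75 CPM. The sum thus mostly follows lin-14 and lin-28 and does not by itself date the larvae. The 16 adult gonad and sperm markers summed to between 5.70 and 7.82 CPM, and most of each sum was rme-2, at 3.45 to 4.84 CPM. Lower, at 0.315 to 1.38 CPM, were spe-26, spe-9 and vit-1, while msp-3, msp-10, msp-31, msp-33, msp-77 and msp-78 had 0 counts throughout.

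All 3 genes were lower in the 4 libraries with the lamin Y59C transgene than in any of the 4 libraries without it. In lamin Y59C they stood at 43.5% to 45.8% of their wild-type means, and in the double mutant at 52.0% to 64.8%. In the cec-4 mutant they stood at 77.8% to 98.1%. Of all 14355 tested genes, 4.44% were likewise lower in all transgene libraries than in all others, and because the genes were chosen with these levels in view nothing is read from that share, nor from the shares given beside their counts in the comparisons that follow. In RNA of whole larvae, fewer cells that express a gene and less RNA per cell cannot be told apart.

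For him-5 the counts were 117 and 123 in the double mutant, 75 and 112 in lamin Y59C, 211 and 219 in the cec-4 mutant and 220 and 336 in wild-type (libraries a and b). This corresponds to 3.59 and 3.94 CPM in the double mutant, 2.36 and 3.53 CPM in lamin Y59C, 6.90 and 5.73 CPM in cec-4 mutants and 6.91 and 5.96 CPM in wild-type. The libraries of the cec-4 mutant and of wild-type overlapped. Those of the double mutant lay just above those of lamin Y59C, and both lay below the rest. In order, the means were 2.95 ± 0.828 CPM in lamin Y59C, 3.76 ± 0.248 CPM in the double mutant, 6.31 ± 0.827 CPM in cec-4 mutants and 6.43 ± 0.666 CPM in wild-type (SD, n = 2). The gap between the lowest pair was smaller than the SD of lamin Y59C, whose library a had 75 counts (95% Poisson interval 58.99 to 94.0, counting error only).

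D1086.5, which starts beside him-5 and is read the other way, was the most abundant of the 3 per length. Its counts were 257 and 271 in the double mutant, 166 and 196 in lamin Y59C, 365 and 369 in the cec-4 mutant and 445 and 651 in wild-type. In CPM these were 7.88 and 8.67 in the double mutant, 5.23 and 6.18 in lamin Y59C, 11.9 and 9.65 in the cec-4 mutant and 13.97 and 11.6 in wild-type. Lamin Y59C was lowest, the double mutant stood apart above it, and the cec-4 mutant and wild-type were higher still and overlapped each other. The means were 5.71 ± 0.674 CPM in lamin Y59C, 8.27 ± 0.563 CPM in the double mutant, 10.8 ± 1.61 CPM in cec-4 mutants and 12.8 ± 1.71 CPM in wild-type. The gap between lamin Y59C and the double mutant exceeded both SDs, and so did that between the cec-4 mutant and wild-type, although the libraries of that pair overlapped.

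D1086.3, downstream of him-5 on the same strand, was the least abundant and rests on few counts. It had 38 and 39 counts in the double mutant, 32 and 32 in lamin Y59C, 56 and 68 in the cec-4 mutant and 84 and 113 in wild-type. In CPM these were 1.16 and 1.25 in the double mutant, 1.008 and 1.0097 in lamin Y59C, 1.83 and 1.78 in the cec-4 mutant and 2.64 and 2.01 in wild-type. No groups overlapped for this gene. The 95% Poisson interval of 32 counts is 21.9 to 45.2 and that of 38 counts is 26.9 to 52.2, so the difference between the double mutant and lamin Y59C was not detectable at this depth.

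**Figure D1:**
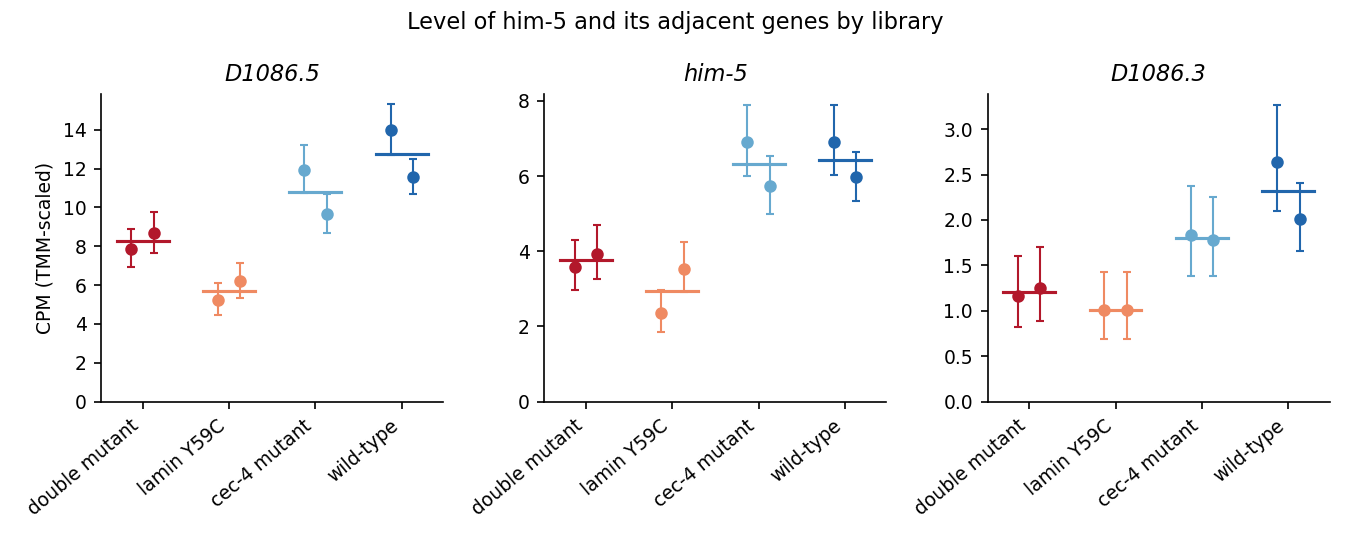
Level of D1086.5, him-5 and D1086.3 in CPM (y axis from 0) in the 2 libraries (points, a left of b) of each genotype, with the mean as a line and 95% Poisson intervals of the counts as bars. The 4 transgene libraries lay at 5.23 to 8.67, 2.36 to 3.94 and 1.01 to 1.25 CPM in these genes, and the others at 9.65 to 13.97, 5.73 to 6.91 and 1.78 to 2.64 CPM.

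On the log2 scale that the authors deposited, which adds a pseudocount of 8, the 4 transgene libraries also lay below the other 4 for each gene. For him-5 these log2 values were 6.56 to 7.16 with the transgene and 7.76 to 7.98 without it. For D1086.3, the weakest of the 3, they were 5.46 to 5.66 with the transgene and 6.17 to 6.66 without it.

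The proportions among the 3 genes varied less than their levels. Per kilobase of exon, the level of D1086.5 was 2.83 to 3.71 times that of him-5 over the 8 libraries (median 3.32), and the level of D1086.3 was 0.420 to 0.674 times that of him-5 (median 0.507). As a share of the counts of all 3 genes, him-5 took 28.4% and 28.4% in the double mutant, 27.5% and 32.9% in lamin Y59C, 33.4% and 33.4% in the cec-4 mutant and 29.4% and 30.5% in wild-type. The exact binomial 95% interval was 24.1% to 33.02% for him-5 in double mutant a and 26.1% to 32.8% in wild-type a. D1086.5 took 62.4% and 62.6% in the double mutant, 60.8% and 57.6% in lamin Y59C, 57.8% and 56.3% in the cec-4 mutant and 59.4% and 59.2% in wild-type. The intervals of the single libraries overlapped there too (57.5% to 67.1% in double mutant a and 55.8% to 62.95% in wild-type a).

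Fold changes came from a fit to all 14355 tested genes (edgeR quasi-likelihood, log2 value ± SE). In lamin Y59C against wild-type the 3 genes had almost the same value: -1.12 ± 0.19 for him-5, -1.15 ± 0.15 for D1086.5 and -1.17 ± 0.21 for D1086.3. Ordered from the lowest fold change of all tested genes, they were at positions 87, 79 and 74. In that comparison 0.279% of all tested genes were called lower at an adjusted p under 0.05 and 23.7% had libraries lying wholly below those of wild-type. All 3 genes were in both sets, which supports nothing, since they were chosen with these levels known. Without wild-type a or without lamin Y59C a, 0 of the 3 were called. Without wild-type b, D1086.3 and D1086.5 were called, and without lamin Y59C b, him-5 and D1086.5. Leaving out 1 library of the double mutant, either one, left D1086.5 alone, as did letters a and b as a block. DESeq2, and edgeR fitted to the 2 groups compared, called him-5 and D1086.5 but not D1086.3.

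With cec-4 deleted as well, the values against wild-type were smaller in size: -0.77 ± 0.18 for him-5, -0.62 ± 0.14 for D1086.5 and -0.92 ± 0.20 for D1086.3 in the double mutant. With edgeR, D1086.3 alone was within the 1.44% of tested genes called lower there, and 24.8% of tested genes lay wholly below wild-type, as all 3 did. Which of the 3 was called there varied with the setting. D1086.3 was not called in 8 of 13 alternatives. DESeq2 and edgeR on the 2 groups alone called him-5 and D1086.5 in its place, and the fits without lamin Y59C a or b called him-5 alone. All 3 were called with no filter and without cec-4 mutant b, D1086.3 and D1086.5 without cec-4 mutant a, and 0 of the 3 without wild-type a, without either double mutant library or with the block. Against lamin Y59C, the double mutant had 0.35 ± 0.20 for him-5, 0.53 ± 0.15 for D1086.5 and 0.26 ± 0.23 for D1086.3, with 0 of the 3 among the 0.174% of tested genes called higher. Their libraries did not overlap in that direction, as for 22.5% of tested genes. The value of him-5 there was 0.09 without lamin Y59C a and 0.67 without lamin Y59C b. Against the cec-4 mutant, the double mutant had -0.74 ± 0.18 for him-5, -0.38 ± 0.14 for D1086.5 and -0.58 ± 0.21 for D1086.3, with 0 of the 3 among the 0.509% called lower and all 3 among the 21.6% whose libraries lay wholly below.

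Deleting cec-4 in larvae with the normal lamin gave -0.02 ± 0.17 for him-5, -0.24 ± 0.14 for D1086.5 and -0.34 ± 0.19 for D1086.3 against wild-type, with 0 of the 3 among the 0.00697% called lower. Only D1086.3 had libraries wholly below wild-type, as did 16.3% of tested genes. The interaction, which is the transgene effect without CEC-4 minus that with CEC-4, was 0.37 ± 0.26 for him-5, 0.77 ± 0.20 for D1086.5 and 0.59 ± 0.30 for D1086.3. For him-5 it was 0.11 without lamin Y59C a and 0.69 without lamin Y59C b. Its sign was positive in all 3, and 0 of the 3 were called, as were 0.0348% of all tested genes. These comparisons share libraries, so their values are not independent of each other.

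**Figure D2:**
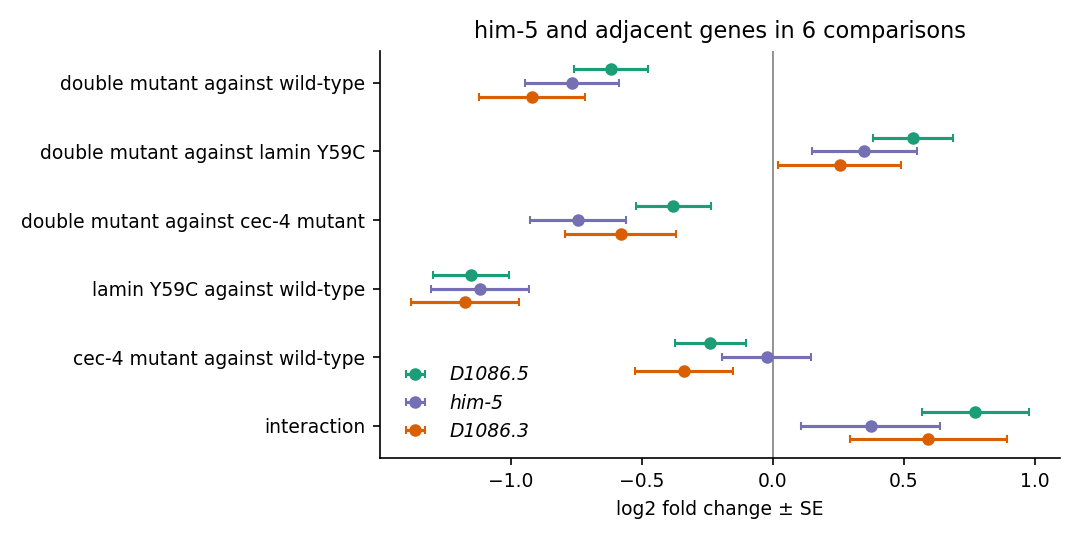
Fitted log2 fold changes (x axis) of D1086.5, him-5 and D1086.3 in the 5 comparisons and the interaction, with SE as bars. The 3 genes lie together between -1.17 and -1.12 in lamin Y59C against wild-type, and spread from -0.92 to -0.62 in the double mutant against wild-type.

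The genes around the 3 are not members, and they were tested in the same fit. Members and window were chosen with earlier results of these data known. Where the set ends may thus depend on the levels of these neighbours, and their counts are not independent of the choice. Of 22 other genes of the count table within 50 kb, 7 had enough counts to be tested, and the other 15 had at most 11 counts in any library. In lamin Y59C against wild-type, edgeR called 0 of these 7 (0.509% of all tested genes were called in either direction). Of the 7, 1 had an unadjusted p under 0.05, DESeq2 called 0, and their fold changes ran from -0.28 to 0.15 with a median of 0.01. The fold changes of all 3 members lay below the lowest of them. The members were chosen with these levels known, so nothing is read from that contrast. In the double mutant against wild-type 1 of the 7 was called, at a background of 2.21% of all tested genes.

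That gene was D1086.8 (WBGene00008395, V:14094105-14097115), a protein-coding gene that begins 118 bases beyond the end of D1086.3 on the same strand. It had 440 and 437 counts in the double mutant, 541 and 533 in lamin Y59C, 536 and 745 in the cec-4 mutant and 703 and 1076 in wild-type. It fell by 0.58 ± 0.09 (log2, SE) in the double mutant against wild-type (adjusted p = 0.0135), and both double mutant libraries lay below both wild-type libraries. It was not called without wild-type a or without either library of the double mutant (adjusted p = 0.107, 0.117 and 0.0892; 0.000696 to 0.117 over all alternatives). In lamin Y59C against wild-type it had -0.28 ± 0.09 (adjusted p = 0.204), and against lamin Y59C the double mutant had -0.30 ± 0.09 (adjusted p = 0.2). So the mean of D1086.8 was lowest in the double mutant, whereas those of him-5, D1086.5 and D1086.3 were lowest in lamin Y59C. For him-5 the gap to the double mutant was smaller than the SD of lamin Y59C, and for D1086.3 it was not detectable. Whether D1086.8 differs from him-5, D1086.5 and D1086.3 was not tested.

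The next tested genes on that side, within 10 kb, were D1086.2, D1086.1 and D1086.12. Their fold changes in lamin Y59C against wild-type were 0.15 ± 0.23, -0.21 ± 0.21 and 0.10 ± 0.14 in that order (adjusted p = 0.819, 0.693 and 0.802). D1086.2 is read from the other strand and overlaps the end of D1086.8, so reads of this pair may be shared. On the other side, D1086.18 (1.703 kb away) had -0.02 ± 0.31 (adjusted p = 0.987) from 20 to 60 counts per library. D1086.19, 187 bases from the end of D1086.5, had 1 to 9 counts and was not tested. D1086.6, D1086.10 and D1086.7 had at most 2 counts in any library. The small RNA genes smy-3, smy-4, smy-5 and smy-6, of which smy-3 lies between him-5 and D1086.3, were not analysed here. Farther out, par-1, which encodes a kinase of cell polarity (18.05 kb away), had 11043 to 21657 counts and a fold change of 0.01 ± 0.06 (adjusted p = 0.953). F58D12.3 had 0.08 ± 0.18 (adjusted p = 0.886).

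**Figure D3:**
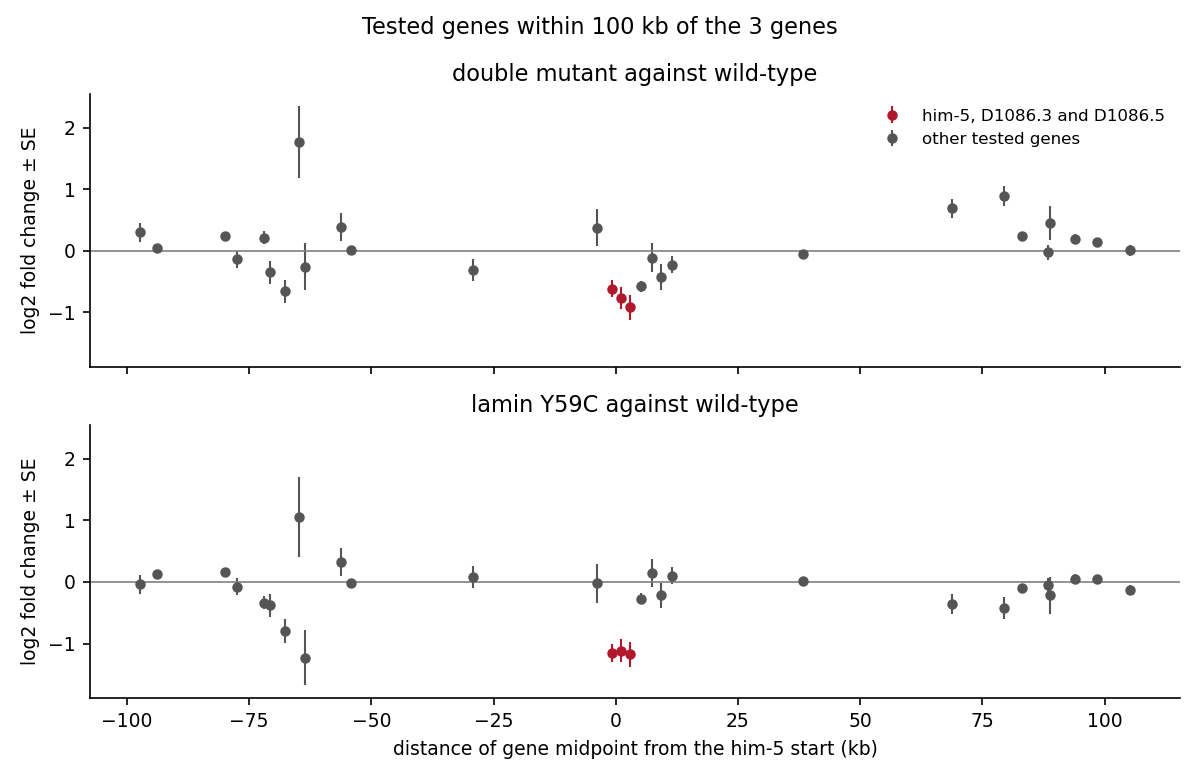
Fitted log2 fold changes (y axis, SE as bars) of tested genes within 100 kb, by distance of the gene's midpoint from the him-5 start in kb, for the double mutant (top) and lamin Y59C (bottom) against wild-type. Red points are him-5, D1086.3 and D1086.5, and in lamin Y59C the 7 other tested genes within 50 kb lie between -0.28 and 0.15.

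Within 100 kb, 26 other genes were tested. In lamin Y59C against wild-type 7 of them had an unadjusted p under 0.05 and their fold changes ran from -1.23 to 1.05, so values as low as those of the 3 genes also occurred, in T08G5.3, which had 5 to 21 counts per library (-1.23 ± 0.45, adjusted p = 0.254). The genes called at that distance, named after their values were seen, were carboxylesterase genes. They were cest-2.1 (74374 bases away; 0.89 ± 0.16, adjusted p = 0.0230, in the double mutant against wild-type, and higher there than in lamin Y59C and the cec-4 mutant too, adjusted p = 0.0147 and 0.0157) and cest-1.2 (63677 bases away; double mutant against lamin Y59C 1.05 ± 0.16 with an adjusted p = 0.0255). They belong to a family of similar genes, so their reads could be split between copies.

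Genes that work with him-5 in meiosis were next compared, from lists that leave him-5 out. Of 12 genes of meiotic break formation, 11 were in the table and tested, and rec-1, a paralog of him-5, was not analysed here. In lamin Y59C against wild-type edgeR called 0 of the 11 (0 had an unadjusted p under 0.05, and DESeq2 called 0), with fold changes of -0.12 to 0.24 and a median of 0.04, against 0.0042 over all tested genes. XND-1 and HIM-17 are chromatin factors that, like HIM-5, promote breaks. Transcripts of xnd-1 were at 6.62 ± 0.00344 CPM in the double mutant, 5.99 ± 0.0499 CPM in lamin Y59C, 6.35 ± 0.545 CPM in cec-4 mutants and 5.77 ± 0.443 CPM in wild-type. Those of him-17 were at 42.3 ± 1.297, 41.0 ± 1.08, 42.6 ± 1.87 and 41.9 ± 0.753 CPM in the same order. Both had fold changes within 0.05 of 0 in lamin Y59C against wild-type (0.05 ± 0.12, adjusted p = 0.902, for xnd-1 and -0.03 ± 0.06, adjusted p = 0.864, for him-17).

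The levels of spo-11, which encodes the enzyme that cuts DNA to start meiotic recombination, were 2.04 ± 0.107 CPM in the double mutant, 1.99 ± 0.00177 CPM in lamin Y59C, 2.03 ± 0.0923 CPM in cec-4 mutants and 1.76 ± 0.141 CPM in wild-type. The break-promoting genes dsb-1 and dsb-2 had 0.24 ± 0.22 (adjusted p = 0.674) and 0.05 ± 0.18 (adjusted p = 0.937) in lamin Y59C against wild-type. In the double mutant against wild-type 0 of the 11 were called, 1 had an unadjusted p under 0.05 and DESeq2 called 0. That gene was dsb-3, at 1.70 ± 0.147 CPM in the double mutant and 0.963 ± 0.119 CPM in wild-type (0.80 ± 0.23, adjusted p = 0.113).

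Genes of later steps of meiosis were not called either. Of 25 genes of chromosome pairing, axis and synapsis, all tested, edgeR and DESeq2 called 0 in lamin Y59C against wild-type, with 1 at an unadjusted p under 0.05 and a median of 0.02. It was the polo-like kinase gene plk-2, which acts in pairing (0.36 ± 0.14, adjusted p = 0.289). The gene him-8, whose zinc-finger protein binds the pairing center of the X and whose mutants also produce males, had 0.06 ± 0.11 (adjusted p = 0.846). Of 25 genes of crossover formation and break repair, edgeR and DESeq2 called 0, with 1 at an unadjusted p under 0.05 and a median of 0.03. It was the helicase gene rtel-1 (0.33 ± 0.09, adjusted p = 0.147), at 22.0 ± 1.65 CPM there, against 17.5 ± 0.645 CPM in wild-type. Over all tested genes, edgeR called 0.0209% in cec-4 mutants against wild-type, 0.676% in the double mutant against lamin Y59C and 0.773% in the double mutant against the cec-4 mutant. Across the other 5 comparisons edgeR and DESeq2 also called 0 genes of these 3 lists, with 0 or 1 genes of each list at an unadjusted p under 0.05.

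**Figure D4:**
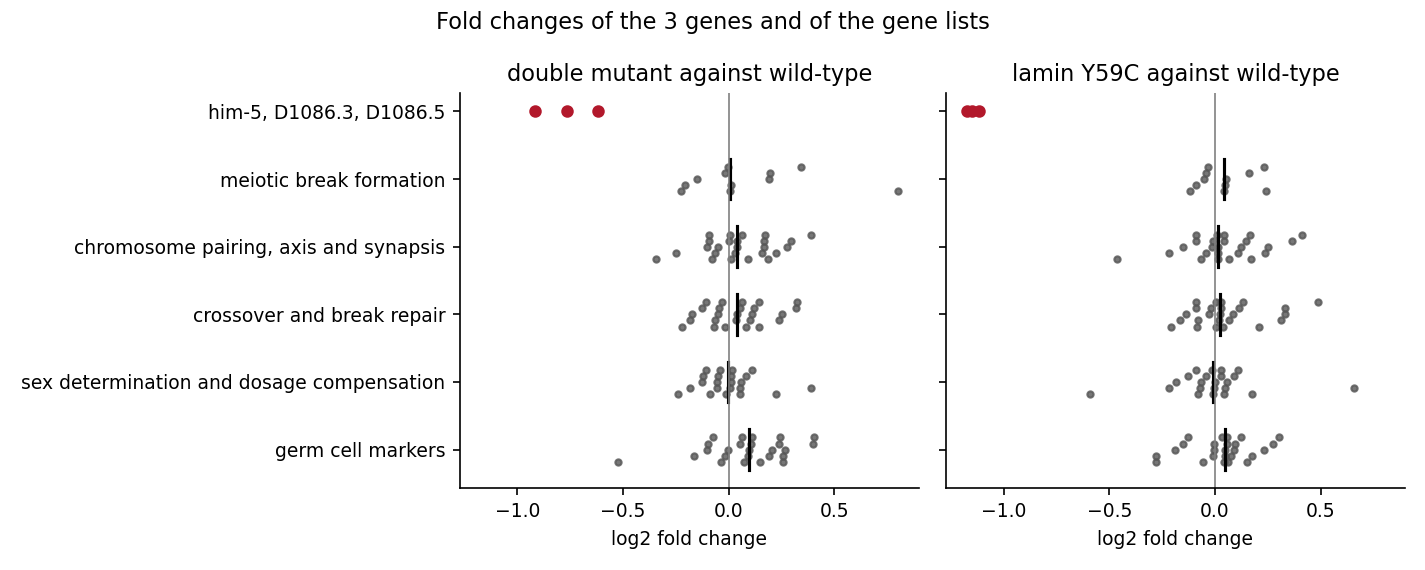
Fitted log2 fold changes (x axis) of the 3 genes (red) and of the tested members of 5 gene lists (grey, list median as a black line), for the double mutant (left) and lamin Y59C (right) against wild-type. In lamin Y59C the list medians lie between -0.01 and 0.05, and the 3 genes, chosen with their levels known, between -1.17 and -1.12.

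Since loss of HIM-5 leads to males among the progeny, genes of sex determination and dosage compensation were compared too. Those males come from meiosis in the parent, so the sex genes of these larvae do not test the him-5 level measured in them. Of 25 such genes 22 were tested, and edgeR and DESeq2 called 0 in any of the 6 comparisons, with 0 to 2 at an unadjusted p under 0.05. In the double mutant against wild-type their fold changes ran from -0.24 to 0.39, with a median of -0.0030. The smallest p there was that of fog-1, a gene of sperm fate, at 6.71 ± 0.0380 CPM in the double mutant and 5.10 ± 0.290 CPM in wild-type (0.39 ± 0.11, adjusted p = 0.102). The other way went fog-3, also of sperm fate, at 1.15 ± 0.190 CPM in the double mutant and 1.37 ± 0.187 CPM in wild-type. In lamin Y59C against wild-type fog-3 had -0.59 ± 0.25 (adjusted p = 0.323). The switch gene xol-1, which is active in XO embryos, had 0 to 4 counts per library, and her-1, which directs male development, had 3 to 11, so neither was tested. Summed over 7 male markers, which include these, levels were 3.37 to 3.46 CPM in the double mutant, 2.15 to 2.71 CPM in lamin Y59C, 1.83 to 3.32 CPM in cec-4 mutants and 2.48 to 3.02 CPM in wild-type. Most of each sum was pkd-2 alone. It was at 2.60 and 2.78 CPM in the double mutant, 1.99 and 1.39 CPM in lamin Y59C, 1.41 and 2.75 CPM in cec-4 mutants and 2.01 and 2.38 CPM in wild-type. Only 2 of the 7 were tested, and edgeR called 0 of them in the double mutant against wild-type.

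Germ cell markers were compared because HIM-5 acts in the germ line. Of 28 markers 25 were tested, and edgeR and DESeq2 called 0 in lamin Y59C against wild-type (1 had an unadjusted p under 0.05). In the double mutant against wild-type both called 0, and 6 had an unadjusted p under 0.05. Summed over the 28, the markers stood at 586 to 587 CPM in the double mutant, 571 to 572 CPM in lamin Y59C, 522 to 543 CPM in cec-4 mutants and 519 to 559 CPM in wild-type. In the double mutant against wild-type, single markers ran from -0.52 to 0.40. Their median was 0.098, against 0.0050 over all tested genes. There nos-1, a translational regulator of germ cells, had -0.52 ± 0.23 (adjusted p = 0.277) and gld-2, a poly(A) polymerase of germ cells, 0.27 ± 0.09 (adjusted p = 0.158). The abundant markers weigh most in the sum, above all gld-2, at 123 ± 7.99 CPM in the double mutant and 102 ± 9.49 CPM in wild-type. Counts of 0 in both libraries of a group occurred for 1 marker in lamin Y59C and 1 in the cec-4 mutant, and for none in the double mutant or wild-type. The part of germ cell content in the levels of him-5, D1086.3 and D1086.5 was not tested. Among single markers, csr-1, an Argonaute of germline small RNAs, had 0.31 ± 0.08 (adjusted p = 0.127) in lamin Y59C against wild-type, and hrde-1, a nuclear Argonaute of the germ line, had 0.24 ± 0.06 (adjusted p = 0.0932) in the double mutant against wild-type.

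The 3 genes were finally set beside all others by the shape of their levels over the 8 libraries. Between members, Pearson's r of log2 CPM was 0.96 for him-5 and D1086.5, 0.95 for D1086.3 and D1086.5 and 0.92 for him-5 and D1086.3. Of 12369 other genes averaging 1 CPM or more, 11 were closer to him-5 than D1086.5 was, and 52 were closer to him-5 than D1086.3 was. These values are descriptions over 8 libraries that share the split by transgene and carry no p.

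The 5 closest genes of each member, 12 in all, had r between 0.97 and 0.99. For 11 of the 12 the transgene libraries lay wholly below the others, against 4.44% of all tested genes. That follows from picking them by likeness to 3 genes with the same split, so nothing is read from it. Only hmit-1.2, a myo-inositol transporter gene (WBGene00013074, V:18524760-18529156), was among the closest 5 of all 3. It was at 2.46 to 3.30 CPM in the transgene libraries and 4.13 to 4.90 CPM in the others. The gene F01F1.3 was among the closest 5 of him-5 and of D1086.5. It was at 24.8 to 31.3 CPM in the transgene libraries and 33.04 to 38.1 CPM in the others. The closest to him-5 was gmeb-1 (r = 0.98), at 29.5 to 32.96 CPM with the transgene and 34.2 to 37.2 CPM without it. The closest to D1086.3 was myrf-2, a myelin regulatory factor homolog (r = 0.98), at 237 to 243 CPM with the transgene and 247 to 257 CPM without it. A high r thus occurred with much smaller differences in level than those of the 3 genes. Of the 12, hmit-1.2 and nhr-99 lie on chromosome V.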

How the data were processed

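The deposited table holds raw read counts per gene for 8 libraries. Bowtie, edgeR 3.24.0 and ce10 are what the submitters' processing notes name; the labels' protocols name a stranded total RNA kit. Which program, gene models and strand setting gave the counts was not given in the sources used here. Whether the counts separate reads of overlapping or antisense genes is therefore not known. The authors' deposited log2 table was recomputed from the counts (pseudocount 8), and 0 of 163136 values differed by more than 1e-06. Symbols and WBcel235 positions were matched by gene ID (19870 of 20392 genes had a position).

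Differences were tested on the counts with edgeR 4.0.16 in R 4.3.3: filterByExpr (6037 genes removed, 14355 tested), TMM factors, and a two-sided quasi-likelihood F-test on the 8 libraries with a mean for each group (common dispersion 0.00408; residual df 4 and prior df 6.03). Benjamini-Hochberg adjustment ran over all tested genes in each of 6 comparisons, and a gene was called at an adjusted p under 0.05. DESeq2 1.42.0 was an alternative. An SE is the absolute log2 fold change over the root of its F. The fit was also run on counts simulated from its own dispersions, which cannot show how it behaves on the real spread between libraries. The 2 libraries of a group differed by more than sampling noise (chi-square per degree of freedom 6.70 to 12.6). Poisson and binomial intervals cover counting error only.

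The members, gene lists, windows and rules were chosen with earlier results of these data known. The text names the members, the genes changed in the strains, table genes within 10 kb and called genes within 50 kb, up to 4 called genes per list (or up to 2 by smallest p), 8 fixed meiotic and sex genes, and the 5 genes closest to each member, of which it gives part. The cest genes and T08G5.3 were named after their values were seen. Also named outside these rules are par-1, F58D12.3, pkd-2, some germ cell markers such as nos-1, and the genes of larval timing and of adult gonad and sperm.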

Additional observations from a re-analysis of the deposited data

How the results depend on the processing

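The fold changes of him-5, D1086.3 and D1086.5 moved by less than the spread between libraries in all 231 alternative values (18 results). With 2 libraries per group, leaving out 1 moves a group mean by less than the SD of the 2. That count was thus largely fixed in advance and shows no stability. The sign turned in 2 of the 231 values, both for him-5 in cec-4 mutants against wild-type (0.08 without wild-type a and 0.11 without cec-4 mutant b). In lamin Y59C against wild-type, leaving out 1 library gave -1.43 to -0.85 for him-5. Small values moved by over 1.5 times: him-5 gave 0.09 to 0.67 in the double mutant against lamin Y59C and 0.11 to 0.69 in the interaction, D1086.5 gave -0.53 (without cec-4 mutant b) to -0.22 (without cec-4 mutant a) in the double mutant against the cec-4 mutant, and in cec-4 mutants against wild-type D1086.3 gave -0.55 to -0.15 and D1086.5 -0.39 to -0.09. The gene list counts were 0 in all 308 alternatives. The count of called neighbours in the double mutant against wild-type was 2 within 100 kb and 0 to 1 when a library was left out. Against lamin Y59C it was 2 within 100 kb, and against the cec-4 mutant it was 1 within 100 kb and 1 with no filter.

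Counts over all genes moved more. Lamin Y59C against wild-type had 73 calls, with 159 under no filter, 234 by DESeq2, 124 with only the 2 groups and 8 to 178 with a library left out. The cec-4 mutant against wild-type had 3, with 11 by DESeq2 and 3 to 9 with a library left out. The double mutant against wild-type had 317, with 37 to 440 with a library left out. The double mutant against lamin Y59C had 97, with 182 under no filter, 236 by DESeq2, 156 with only the 2 groups and 6 to 166 with a library left out. The double mutant against the cec-4 mutant had 111, with 212 under no filter, 251 by DESeq2 and 11 to 140 with a library left out. The interaction had 5, with 34 under no filter, 74 by DESeq2 and 1 to 35 with a library left out. The cause was not tested. A group left with 1 library is assumed to vary like the others.

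With the letters a and b as a replicate block, the calls were 27, 146, 28 and 58 in lamin Y59C against wild-type, double mutant against wild-type, double mutant against lamin Y59C and double mutant against cec-4 mutant, in that order. The block left D1086.5 alone called among the 3 genes in lamin Y59C against wild-type and 0 of them in the double mutant against wild-type. The labels give no meaning to the letters. Over 9692 genes, the differences between libraries a and b correlated at 0.45 between lamin Y59C and the double mutant. They correlated at -0.48 and -0.47 between the cec-4 mutant and each of these, and at -0.20 to 0.16 in pairs with wild-type. The letters thus did not pair libraries in the same way in all groups, and whether libraries share a batch was not tested. Below about 40 counts, as in D1086.3 with the transgene, counting error limits what can be seen.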
